A study of Homo sapiens with 24 samples.

Results

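HPS3 and CP are neighbouring genes on the long arm of chromosome 3 that are transcribed toward each other and share exon bases on opposite strands. The 2 rows described here, of 58024 in the table of FPKM values (fragments per kilobase of transcript, scaled to the mapped fragments of the library), are those whose Ensembl identifiers belong to HPS3 (ENSG00000163755.8) and CP (ENSG00000047457.13) in GENCODE release 29. The pair was chosen by the measured FPKM of HPS3, which differed between knockout and wild-type cells in basal medium. The genotype differences at 0 h, and those of HPS3 against 0 h, are therefore given below as a description, without a test. CP against 0 h was tested, although with the 0 h libraries on which HPS3 was chosen. CP entered as the overlapping gene, and both rows are set side by side as readouts of a single locus.

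HPS3 encodes a subunit of BLOC-2, a complex that helps deliver cargo to lysosome-related organelles such as melanosomes and platelet dense granules. Its loss causes a form of Hermansky-Pudlak syndrome, in which pigmentation and platelet function are impaired. CP encodes ceruloplasmin, a copper-binding ferroxidase that hepatocytes secrete into plasma, where it carries most of the copper and oxidises iron for loading onto transferrin. It is also an acute phase protein of the liver.

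RNA was sequenced from Huh7 cells, a human hepatoma line, either wild type (WT) or with a knockout (KO) of ABHD6, a serine hydrolase that degrades monoacylglycerols. Both genotypes were sampled without fatty acid, in basal medium (0 h), and at 24 h and 48 h of exposure to 800 µM of the saturated fatty acid palmitic acid. There were 6 groups with 4 libraries each, made with a directional TruSeq mRNA kit, and all groups share the Huh7 background. The labels give neither the number of knockout clones nor whether replicate libraries stem from separate dishes, so p-values measure only the spread between these libraries. No vehicle group was listed, so hours in palmitic acid and hours in culture cannot be told apart.

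In the GRCh38 annotation, HPS3 spans chr3:149129584-149173732 on the plus strand and CP spans chr3:149162410-149222055 on the minus strand. The gene bodies overlap over 11323 bp. Their exons share 1418 bp, which is 22.7% of the exon bases of HPS3 and 19.4% of those of CP. Most of the shared stretch lies at the facing 3′ ends: the last exon of the main 19-exon CP transcript, ENST00000264613.10 (chr3:149172499-149173730, 1232 bp, of which 1215 bp are 3′ UTR), sits wholly inside the last exon of the main 17-exon HPS3 transcript, ENST00000296051.6 (chr3:149172095-149173732, 1638 bp, of which 1510 bp are 3′ UTR). The other 186 bp (chr3:149162690-149162875) are a coding exon of HPS3 that lies opposite the last exon of CP models with 6 and 18 exons. In all, 30.4% of the 4665 bp of the main HPS3 transcript and 26.3% of the 4676 bp of the main CP transcript lie opposite exons of the other gene. A shorter coding HPS3 model with 16 exons stops before the long shared 3′ end, and only 6.8% of its 2745 bp lie over CP exons. No other annotated gene has exons over either of them.

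**Figure D1:**
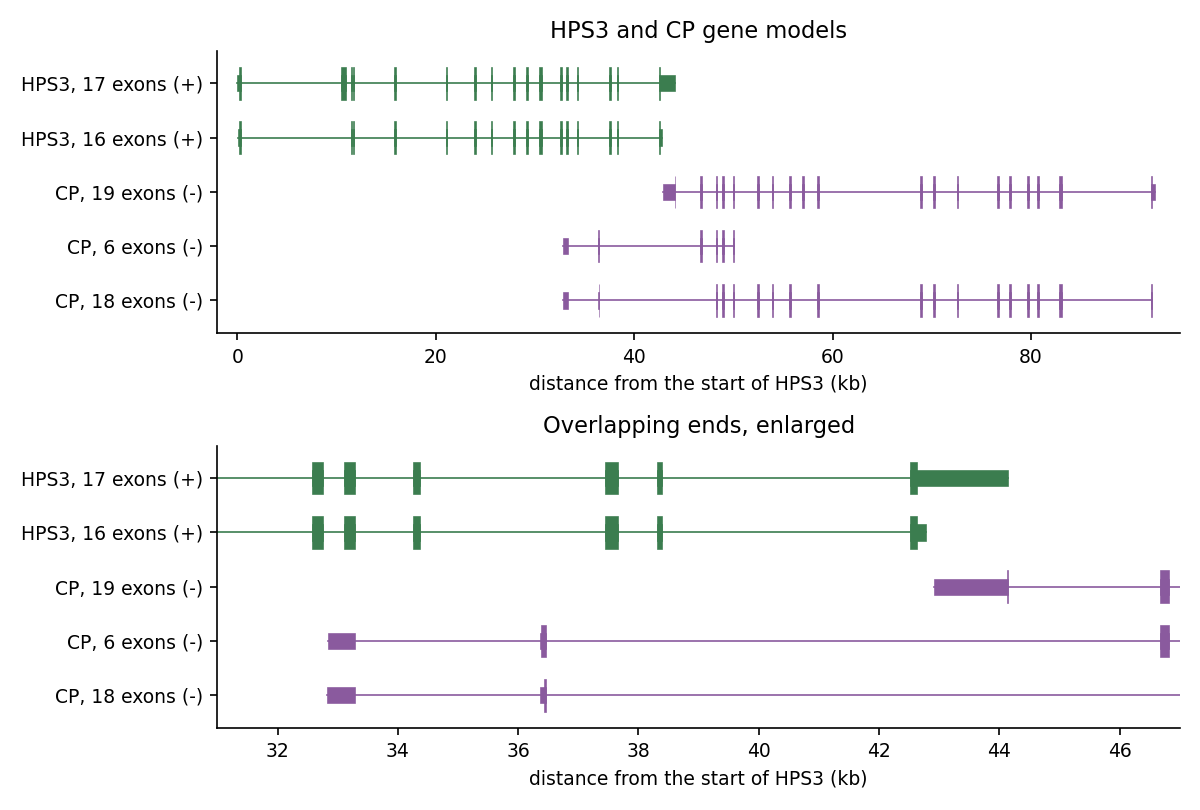
Gene models of HPS3 (plus strand, green) and CP (minus strand, purple) by distance from the start of HPS3 in kb, whole (top) and enlarged over the overlapping ends (bottom); tall boxes are coding bases, low boxes untranslated bases and lines introns. The low box that ends the 19-exon CP transcript lies under the low box that ends the 17-exon HPS3 transcript, and the ends of the 6-exon and 18-exon CP models lie under an HPS3 coding exon.

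The sequences below, from the GENCODE release 29 transcripts, show why the strand of a read decides which gene it counts for. The first pair is the point where ceruloplasmin translation ends, chr3:149173714-149173730, read on the minus strand for CP and on the plus strand for HPS3, where the same bases are 3′ UTR. Capitals mark the stop codon of the main CP transcript and its complement in HPS3.
CP, end of the coding sequence: acaccaaatctggcTGA
HPS3, same bases: TCAgccagatttggtgt
The second pair is the start of the other shared stretch, chr3:149162690-149162719, which is protein-coding in HPS3 and lies in the final exon of the 6-exon CP model; no bases are set in capitals.
HPS3, coding exon: gtgctttgtgctaaggatgaagatacaatt
CP, same bases: aattgtatcttcatccttagcacaaagcac
Each line of a pair is the reverse complement of the other, so a fragment from these bases fits both genes unless its strand is used. The kit keeps strand, but no source used here gives the strand setting with which fragments were counted. HPS3 and CP reads in the shared bases therefore cannot be told apart in these values, and no split of either row into shared and unshared exons was possible. Some other overlapping pairs differed widely, as BEST1 at a mean of 7760 FPKM beside FTH1 at 845, and MRNIP at 7930 beside SQSTM1 at 144. Others were close, as ILK at 138 and TAF10 at 137. Whether fragments were counted for the gene on the opposite strand was not tested. HPS3 and CP below therefore name rows, each of which may hold fragments of the other gene.

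Depth was low. The fragments behind each library, estimated from the smallest step between FPKM values, numbered 398496 to 743006, and between 12894 and 15334 genes were above 0. The estimate puts 119 to 803 fragments on HPS3 and 216 to 407 on CP per library, with 1 fragment worth 0.289 to 0.538 FPKM for HPS3. These counts take each row as its main transcript, of 4665 bp for HPS3 and 4676 bp for CP. The lengths used for the FPKM values are not given. Estimated depth and time moved together, from 398496 to 503885 fragments at 0 h to 569772 to 743006 at 48 h, and the part of depth in the results was not tested. ABHD6 could not serve as a check of the genotypes: it was detected in 3 of 12 WT and 4 of 12 KO libraries and never exceeded 1.16 FPKM. All 10 hepatocyte markers were at 1 FPKM or more, whereas 2 of 8 stellate and fibroblast, 2 of 8 endothelial and 2 of 8 immune markers were, the latter chiefly LYZ (mean 183 FPKM). Of 8 biliary markers 7 were, and their summed FPKM moved with time, from between 91.9 and 304 at 0 h to between 366 and 837 at 48 h. Most of that sum was CD24 (mean 302 FPKM), whose mean went from 191 to 522 FPKM in WT and from 106 to 407 FPKM in KO. The part of these markers in the HPS3 and CP values was not tested.

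Both rows stood high, which does not show how strongly each gene itself was expressed. HPS3 averaged 138 FPKM over the 24 libraries and CP 113 FPKM, which placed HPS3 above 96.9% and CP above 96.1% of the 12043 protein-coding genes tested. FPKM is scaled to length, but 30.4% of the main HPS3 transcript and 26.3% of the main CP transcript lie opposite exons of the other gene. A comparison of the rows therefore need not compare the 2 transcripts, and the part of the shared bases was not tested. Over all libraries HPS3 and CP differed by an absolute log2 ratio of 0.29. Among 1585 opposite-strand exon-overlapping pairs of protein-coding genes with both members tested, the median absolute log2 ratio was 1.85, and 7.89% of pairs were closer than HPS3 and CP. The shared exon length was also large for such a pair, with a median of 276 bp and fewer than 1418 bp in 90.8% of them.

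HPS3 in basal medium was high in WT and low in KO cells. The 4 WT libraries gave 194, 259, 185 and 251 FPKM, and the 4 KO libraries gave 67.9, 53.2, 61.8 and 75.1 FPKM. Every KO library lay below every WT library, with means of 222 ± 38.2 FPKM in WT and 64.5 ± 9.26 FPKM in KO (SD, n = 4 each). The fitted log2 difference, on the log2(FPKM + 0.5) scale used throughout, was -1.77 ± 0.24 (SE), a 3.42-fold lower level in KO. These are bulk values, in which fewer cells expressing HPS3 and less HPS3 RNA per cell cannot be told apart. Fragments of HPS3 and CP in the shared bases cannot be told apart either. In this contrast 0.0985% of all genes tested passed an adjusted p of 0.05, and nothing is read from HPS3 being among them, since it chose the gene. Without WT replicate 0 the count went from 17 to 36 genes.

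CP in the same 8 libraries showed a much smaller gap. The WT libraries gave 158, 198, 167 and 131 FPKM and the KO libraries 155, 110, 129 and 128 FPKM. The groups overlapped, although 3 of the 4 KO libraries lay below all WT libraries, and the means were 164 ± 27.6 FPKM in WT and 130 ± 18.5 FPKM in KO (SD, n = 4 each). The fitted log2 difference was -0.32 ± 0.19 (SE), with a 95% interval from -0.72 to 0.08. HPS3 therefore made up 57.5 ± 5.68% of the summed FPKM of both rows in WT and 33.1 ± 2.7% in KO (SD, n = 4 each), and CP was the higher row in every KO library and HPS3 in every WT library.

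**Figure D2:**
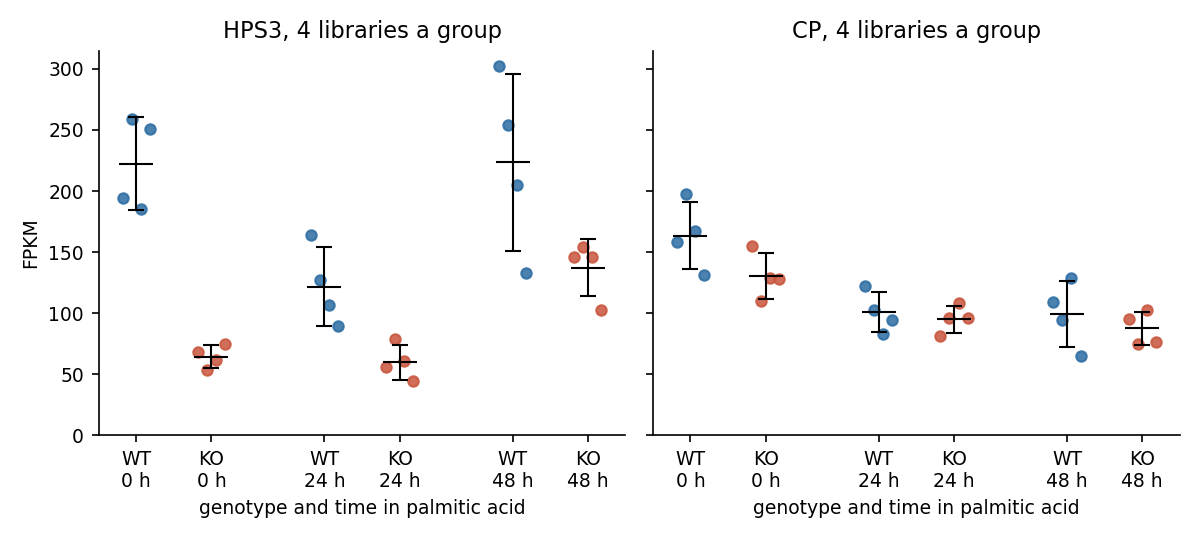
FPKM of HPS3 (left) and CP (right) in each library by genotype and hours in palmitic acid; points are the 4 libraries of a group, the long bar is the mean and the whiskers 1 SD. HPS3 in KO lies between 53.2 and 75.1 FPKM at 0 h and between 44.4 and 78.5 FPKM at 24 h, below all WT libraries of those times, and CP is highest at 0 h in both genotypes.

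After 24 h in palmitic acid HPS3 was again lower in every KO library than in any WT library. Full separation of 4 against 4 libraries corresponds to an exact permutation p of 0.0286. For HPS3 that p was 0.114 after Benjamini-Hochberg adjustment over the exact permutation tests of both rows, so it did not pass 0.05. The share of all genes that separate fully is not given, here or below. The WT libraries gave 164, 127, 107 and 89.3 FPKM and the KO libraries 55.6, 78.5, 61.2 and 44.4 FPKM. The WT values were lower than at 0 h, and the means were 122 ± 32.1 FPKM in WT and 59.9 ± 14.2 FPKM in KO (SD, n = 4 each). The log2 difference was -1.01 ± 0.24 (SE; 95% interval -1.5 to -0.52), a 2.02-fold lower level in KO. In the limma fit over 17252 genes its unadjusted p was 0.000276, but the Benjamini-Hochberg adjusted p was 0.34, so HPS3 did not pass the threshold of 0.05. That comparison called 0.0116% of genes, or 2, and neither HPS3 nor CP was among them; of the 2 members, HPS3 alone had an unadjusted p under 0.05, as did 5.17% of all genes. The 2 calls went to 0 on leaving out WT replicate 0 or 2 or KO replicate 0, 2 or 3.

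CP at 24 h had similar means in both genotypes, 101 ± 16.4 FPKM in WT and 95.2 ± 11.0 FPKM in KO (SD, n = 4 each). It stood at 122, 103, 83.3 and 94.3 FPKM in WT and at 81.0, 95.9, 108 and 95.7 FPKM in KO, with overlapping groups. The log2 difference was -0.08 ± 0.19 (SE; 95% interval -0.48 to 0.32), with a limma adjusted p of 1. The upper and lower ends of that interval do not reach the 2.02-fold difference fitted for HPS3 in the same libraries.

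At 48 h the genotypes overlapped for HPS3. The WT libraries gave 302, 254, 205 and 133 FPKM, the widest spread of any group, and the KO libraries 146, 154, 146 and 103 FPKM. Of the KO libraries, 1 of 4 lay below all WT libraries, and the means were 224 ± 72.3 FPKM in WT and 137 ± 23.0 FPKM in KO (SD, n = 4 each). The log2 difference was -0.66 ± 0.24 (SE; 95% interval -1.14 to -0.17), a 1.58-fold lower level in KO, with a limma p of 0.0105 and an adjusted p of 0.528. CP stood at 109, 94.2, 129 and 64.8 FPKM in WT and at 95.4, 75.0, 103 and 76.8 FPKM in KO, and its log2 difference was -0.15 ± 0.19 (SE; adjusted p = 0.958, limma). Neither member was called where 0.0638% of genes, or 11, were (6 without WT replicate 0 or 2 or KO replicate 2, and 33 without WT replicate 3), and HPS3 was the member with an unadjusted p under 0.05, as 6.56% of all genes had. Whether the HPS3 genotype gap changed from 24 h to 48 h was tested as an interaction: the estimate was 0.36 ± 0.33 (SE; 95% interval -0.33 to 1.04) with an adjusted p of 0.987 in limma, and for CP it was -0.07 ± 0.27 (adjusted p = 1), with 0.0174% of genes called (3, and 5 without WT replicate 1 at 24 h or replicate 0 at 48 h).

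Setting the rows against each other within a library removes any scaling between libraries. At 24 h HPS3 made up 57.3, 55.1, 56.1 and 48.6% of the summed FPKM in WT and 40.7, 45.0, 36.2 and 31.7% in KO, with no overlap. The log2 ratio of HPS3 to CP was lower in KO by 0.94 ± 0.21 (SE), or 1.91-fold, with a two-sided exact permutation p of 0.0286, the smallest that 4 against 4 libraries can give, and an adjusted p of 0.0381 over the 4 ratio comparisons. At 48 h the shares were 73.5, 73.0, 61.4 and 67.2% in WT and 60.4, 67.3, 58.6 and 57.3% in KO. These overlapped, with 3 of 4 KO libraries below all WT libraries, and the ratio was 1.42-fold lower in KO (exact permutation p = 0.0857, adjusted p = 0.0857). At 0 h, as a description, the ratio was 2.73-fold lower in KO. Leaving out any 1 library ends the 24 h call, because 3 against 4 libraries cannot go below an exact p of 0.0571.

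**Figure D3:**
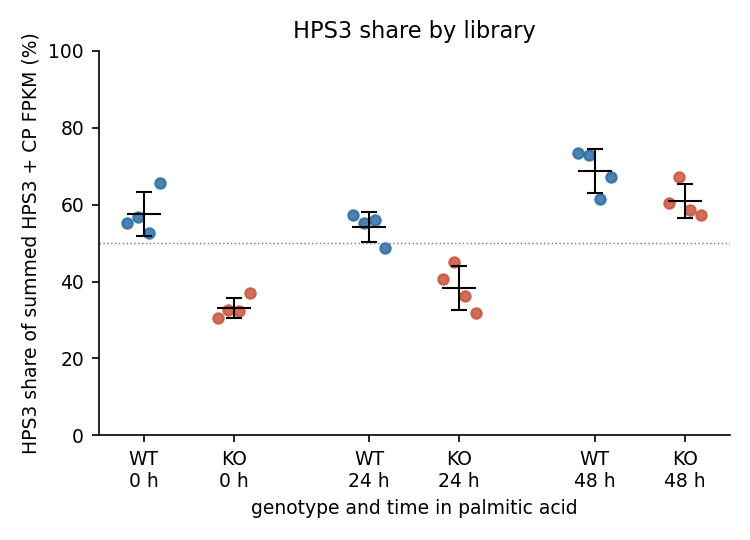
HPS3 as a percentage of the summed FPKM of HPS3 and CP in each library, by genotype and hours in palmitic acid; points are libraries, the long bar the mean, the whiskers 1 SD and the dotted line equal levels. KO libraries lie between 30.5 and 45.0% at 0 h and 24 h and between 57.3 and 67.3% at 48 h.

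HPS3 rose from 24 h to 48 h in KO cells, where the 48 h libraries (103 to 154 FPKM) all lay above the 24 h libraries (44.4 to 78.5 FPKM). The log2 difference was 1.20 ± 0.24 (SE; 95% interval 0.71 to 1.69), a 2.3-fold rise, with an adjusted p of 0.0146 in limma. Of all genes, 0.11% were called higher in that comparison and 0.516% in either direction, or 89 genes, which fell to between 47 and 57 without 24 h replicate 0 or 48 h replicate 1, 2 or 3. In WT cells 3 of the 4 libraries at 48 h lay above all 24 h libraries. HPS3 was 1.8-fold higher there (log2 difference 0.85 ± 0.24 (SE); adjusted p = 0.23, limma), in a comparison that called 0.122% of genes, or 21 (6 and 7 without 24 h replicates 2 and 3, and 9 without 48 h replicate 0). The KO call is close to its threshold: it was lost on leaving out any 1 of 5 of the 8 libraries (24 h replicates 0 and 3, 48 h replicates 0, 1 and 2), where the adjusted p lay between 0.0512 and 0.0598.

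CP did not follow HPS3 over the same interval. Its log2 difference from 24 h to 48 h was -0.05 ± 0.19 in WT (95% interval -0.45 to 0.35; adjusted p = 1) and -0.13 ± 0.19 in KO (95% interval -0.53 to 0.28; adjusted p = 0.926, limma). In KO the upper end of the CP interval lies below the lower end of the HPS3 interval. The ratio of HPS3 to CP accordingly rose 1.86-fold in WT and 2.51-fold in KO, without overlap of the libraries in either genotype (exact permutation p = 0.0286 and adjusted p = 0.0381 in each). HPS3 made up 54.3 ± 3.89% of the summed FPKM at 24 h and 68.8 ± 5.66% at 48 h in WT, against 38.4 ± 5.75% and 60.9 ± 4.42% in KO (SD, n = 4 each). In KO cells CP was the higher row in every library at 0 h and 24 h and the lower row in every library at 48 h.

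Against basal medium CP fell in WT cells. All 4 WT libraries at 24 h (83.3 to 122 FPKM) and all 4 at 48 h (64.8 to 129 FPKM) lay below the lowest WT library at 0 h, 131 FPKM. At 24 h the log2 difference was -0.70 ± 0.19 (SE), a 1.62-fold lower level with an adjusted p of 0.0423 in limma, where 4.06% of genes were called and 2.6% were called lower (701 in all, and 453 without 24 h replicate 3). At 48 h it was -0.75 ± 0.19 (SE), or 1.68-fold lower, with an adjusted p of 0.019, where 6.79% of genes were called and 4.22% were called lower. Both comparisons use the same 0 h libraries, on which HPS3 was chosen, and the CP row may hold HPS3 fragments. The part of that choice in the CP differences and their p-values was not tested. Summed FPKM over all genes moved in the same direction, from 1031361 to 1160427 in the WT libraries at 0 h to 748252 to 949068 at 48 h, and its part in the CP values was not tested. The 24 h call was lost on leaving out any 1 of 6 of the 8 libraries (adjusted p up to 0.139), and the 48 h call on leaving out 0 h replicate 1 (-0.65, adjusted p = 0.0693) or 48 h replicate 3 (-0.56, adjusted p = 0.0758). Quantile normalization reduced both differences to -0.45 and ended both calls (adjusted p = 0.163 and 0.13).

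In KO cells CP was also lower at both times than in any KO library at 0 h, where the lowest was 110 FPKM, but it did not pass the test. The log2 difference was -0.45 ± 0.19 at 24 h (SE; adjusted p = 0.207, limma; 5.64% of genes called) and -0.58 ± 0.19 at 48 h (SE; adjusted p = 0.0626; 9.82% called). Both values shrank with scaling between libraries: quantile normalization gave -0.22 at 24 h and -0.20 at 48 h (adjusted p = 0.553), and median-of-ratios gave -0.40 at 48 h (adjusted p = 0.178). Whether the CP response differed between genotypes was not tested against 0 h. The lower values of CP sit within a wider set: among 746 protein-coding genes at a mean of 50 FPKM or more that have opposite-strand exon overlap, the median log2 difference was -0.38 at 48 h in WT and -0.48 in KO, and 23.9% and 44.6% of them lay below CP. The 292 such genes without overlap had medians of -0.05 and 0.06. These classes were formed after their values were seen, and the part of overlapping transcription in the CP values was not tested.

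HPS3 took another course against 0 h, given here without a test. In WT it was lower at 24 h, with a log2 difference of -0.89 ± 0.24 and no overlap, and close to its 0 h level at 48 h (-0.04 ± 0.24). In KO it was close to that level at 24 h (-0.12 ± 0.24) and 2.11-fold higher at 48 h, with a log2 difference of 1.08 ± 0.24 and no overlap. The differences near 0 turned sign with scaling: at 48 h in WT the value was 0.08 with median-of-ratios and 0.31 with quantile normalization, and at 24 h in KO it was 0.05 with quantile normalization. Ordered by mean, HPS3 was highest at 48 h in WT (224 FPKM) and at 0 h in WT (222 FPKM), which overlapped. KO at 48 h (137 FPKM) and WT at 24 h (122 FPKM) came next and also overlapped, and KO at 0 h (64.5 FPKM) and KO at 24 h (59.9 FPKM) were lowest, overlapped each other and did not overlap WT at 24 h.

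**Figure D4:**
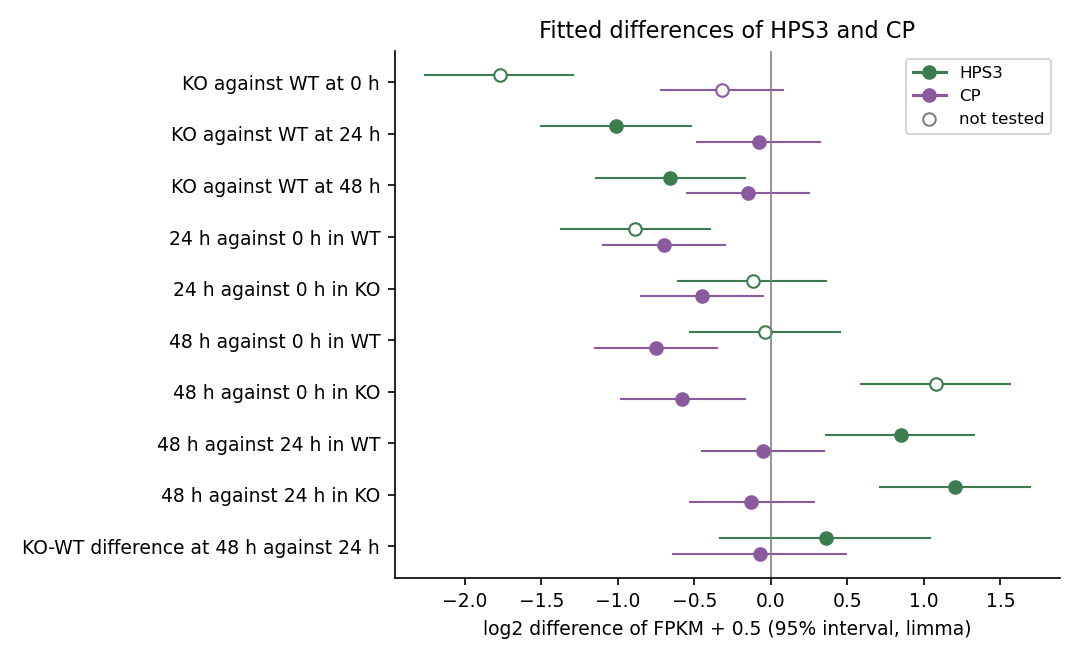
Fitted log2 differences of HPS3 (green) and CP (purple) for each comparison, with 95% intervals from limma; open circles are comparisons given without a test. The 2 rows separate most in KO at 48 h, where HPS3 is 1.08 above and CP 0.58 below 0 h on the log2 scale.

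The relation of HPS3 and CP among the 4 libraries of a group was positive but did not pass a test. Over all 24 libraries the deviations of both rows from their group means had a Pearson r of 0.53 and a Spearman rho of 0.44, given as a description because the 0 h values of HPS3 chose the gene. Over the 16 libraries at 24 h and 48 h, r was 0.59 (p = 0.0612, permutation within groups) and rho 0.53 (p = 0.0778), both with an adjusted p of 0.0778 over the 2 measures, so neither passed 0.05. The 2 rows of a library share its depth and, in part, their exons. Without the 2 libraries farthest from the median of HPS3 among these, r was 0.63 (permutation p = 0.0656). Without the 2 largest HPS3 deviations, both low WT libraries (replicate 3 at 24 h and at 48 h), r was 0.37 (permutation p = 0.221). Across all 24 libraries with group differences included, the r of HPS3 with CP was 0.26, and 750 of 6002 protein-coding genes at a mean of 5 FPKM or more were more like HPS3 than CP was.

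The gene most like HPS3 across the 24 libraries was TF, which encodes transferrin, the plasma iron carrier, with an r of 0.83. ADGRG5, an adhesion receptor, followed at 0.82, SLC7A2, a cationic amino acid transporter, at 0.80 and CSNK1D, a casein kinase, at 0.77. TF is also on chromosome 3 but shares no exon bases with another coding gene on the opposite strand. It averaged 140 ± 38.7, 138 ± 18.7 and 205 ± 19.1 FPKM in WT cells at 0, 24 and 48 h (SD, n = 4 each). In KO cells the same times gave 82.5 ± 5.47, 91.0 ± 6.19 and 147 ± 11.5 FPKM, each below the WT mean of that time. CP resembled other genes: RRBP1, a ribosome-binding protein of the endoplasmic reticulum (r = 0.91), TCP1, a chaperonin subunit (0.89), STK24, a kinase (0.87) and RAD9A, a DNA damage checkpoint protein (0.87). Of these, TCP1, STK24 and RAD9A have opposite-strand exon overlap as CP does. Such overlap was common: among protein-coding genes at a mean of 50 FPKM or more, 746 had it and 292 did not. These r values hold group differences, including those the choice of HPS3 used, and were given no p.

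The rows of the HPS3 partners in BLOC-2 were far lower. HPS5 averaged 2.17 FPKM and HPS6 0.596 FPKM over the 24 libraries, with HPS6 listed at 0 in 12 of them, against 138 FPKM for HPS3. HPS3 has opposite-strand exon overlap and HPS5 and HPS6 have none, so these rows do not show that HPS3 RNA exceeded theirs. A list of 22 genes held the other subunits of BLOC-1, BLOC-2, BLOC-3 and the AP-3 adaptor, which traffic cargo to lysosome-related organelles, with 4 genes of related transport steps that are not subunits of these complexes, RAB32, RAB38, VPS33B and VIPAS39. Of the 22, 21 were tested. None passed the limma test between genotypes at 24 h or 48 h, and at an unadjusted p under 0.05 there was 1 higher and 1 lower at each time, against 5.17% and 6.56% of all genes. The list's median log2 difference was 0.12 at 24 h and 0.28 at 48 h, against 0 for all genes tested. At 48 h against 0 h the list held 1 called gene of 21 in each genotype, where 6.79% of all genes were called in WT and 9.82% in KO. AP3B1, the large beta subunit of AP-3, rose in WT from 48.7 ± 3.51 to 85.2 ± 19.1 FPKM (SD, n = 4 each; adjusted p = 0.0289, limma). VPS33B, of the related genes, which acts in vesicle fusion, fell in KO from 12.2 ± 7.42 to 1.78 ± 2.76 FPKM (SD, n = 4 each; log2 difference -2.97 ± 0.87, adjusted p = 0.0304). From 24 h to 48 h in KO, where HPS3 rose, none of the other members passed, with 0 higher and 1 lower at an unadjusted p under 0.05, against 9.3% of all genes.

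Of 27 other copper and iron handling genes, set beside CP, 24 were tested. Between genotypes none passed at 24 h (median log2 difference -0.22; at an unadjusted p under 0.05, 0 higher and 1 lower, against 5.17% of all genes) or at 48 h (median 0.17; 1 higher and 2 lower unadjusted, against 6.56%). Against 0 h at 48 h, 2 rose and 1 fell in WT, and 5 rose and 1 fell in KO, with medians of 0.30 and 0.59. These are 3 and 6 of 24, beside 6.79% and 9.82% of all genes called. TF rose in both (0.59 ± 0.16 in WT, adjusted p = 0.022; 0.83 ± 0.16 in KO, adjusted p = 0.000735), as did FTH1, the ferritin heavy chain (0.74 ± 0.18 in WT, adjusted p = 0.0105; 1.34 ± 0.18 in KO, adjusted p = 1.23e-05). SCO2, a copper chaperone of cytochrome oxidase, fell in both, by 0.72 and 1.32 on the log2 scale. FTH1 and SCO2 also have opposite-strand exon overlap. The row of BEST1, on the strand opposite FTH1, averaged 7760 FPKM against 845 FPKM for FTH1. Which gene the fragments of the FTH1 row came from was not tested. TFRC, the transferrin receptor, rose in KO from 9.92 ± 1.89 to 24.5 ± 5.06 FPKM (SD, n = 4 each; adjusted p = 0.0113). The CP row lay on the other side of 0 from TF at 48 h against 0 h in both genotypes. In KO the CP difference was not called (-0.58 ± 0.19, adjusted p = 0.0626, limma) and was -0.20 with quantile normalization. The CP row may also hold HPS3 fragments. From 24 h to 48 h in KO, TF was the only member of the list past the threshold (0.69 ± 0.16, adjusted p = 0.0427).

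Other acute phase genes did not pass between genotypes either. Of 19 such genes 11 were tested, 0 were called at either time, and the median log2 differences were -0.62 at 24 h and -0.58 at 48 h, with 4 lower at 24 h and 3 lower at 48 h at an unadjusted p under 0.05 and 0 higher (limma). Of all genes tested, 2.53% were lower at 24 h and 3.96% at 48 h by that measure. FGB, the fibrinogen beta chain, was the member that fell against 0 h at 24 h, by 0.60 ± 0.16 in WT (adjusted p = 0.0323) and by 0.78 ± 0.16 in KO (adjusted p = 0.00324), beside 4.06% and 5.64% of all genes called. The WT call ended with median-of-ratios (-0.49, adjusted p = 0.0639). At 48 h against 0 h none passed in either genotype, where 3 were higher in WT and 2 in KO at an unadjusted p under 0.05, beside 8.78% and 9.64% of all genes. The summed FPKM of 10 hepatocyte markers, TF and FGB among them, ran from 1100 to 1330 in WT and from 949 to 1070 in KO libraries at 0 h. The range was 1030 to 1270 in WT and 841 to 1010 in KO after 24 h, and 1790 to 2060 in WT and 1660 to 1860 in KO after 48 h. The ranges of the genotypes did not overlap at 0 h and 24 h and overlapped at 48 h, as for HPS3, and the part in the HPS3 values was not tested.

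Genes around the locus gave no genotype call at 24 h or 48 h. Of 28 annotated genes within 500 kb of HPS3 and CP, 10 were tested, and none passed between genotypes at 24 h (median log2 difference -0.35) or 48 h (0.07), with 0 at an unadjusted p under 0.05 at either time (limma). At 0 h, described without a test, most of the tested neighbours had a lower mean in KO than in WT. CPHL1P, a ceruloplasmin-like pseudogene beside CP on the same strand, averaged 16.4 ± 14.4 FPKM in WT and 4.43 ± 5.84 FPKM in KO there (SD). The genotypes overlapped, and it was listed at 0 in 13 of 24 libraries. TM4SF1, which encodes a tetraspanin-like membrane protein, rose at 48 h against 0 h in both genotypes (0.83 ± 0.22 in WT, adjusted p = 0.0252; 1.38 ± 0.22 in KO, adjusted p = 0.000156). It also rose from 24 h to 48 h in KO (1.07 ± 0.22, adjusted p = 0.0258), as HPS3 did. HLTF, a helicase-like repair factor that itself has opposite-strand exon overlap, fell at 48 h against 0 h in both (-1.01 ± 0.30 and -1.11 ± 0.30; adjusted p = 0.0397 and 0.0166). With median-of-ratios the HLTF call in WT was lost (-0.90, adjusted p = 0.0725).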

How the data were processed

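RNA-seq libraries were aligned and quantified by the authors as FPKM values per gene and library. The submitters' processing notes name STAR, Cufflinks, Cuffdiff and GRCh38, without versions, roles or a strand setting. Of the deposited 58024 identifiers, 98.9% matched GENCODE release 29 without version numbers, and 45 chromosome Y copies of shared genes were left out. Times came from titles and the design text, since the protocol gives only 1 day of treatment.

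The scale was log2(FPKM + 0.5), fitted over 17252 genes that averaged 0.5 FPKM or more (40727 lay below) in limma 3.58.1 (R 4.3.3), with 6 group means, no scaling between libraries, an intensity trend in the variance, 18 residual degrees of freedom and Benjamini-Hochberg adjustment over all genes tested, with a threshold of 0.05. Intervals are 95%. Ratios and the exact tests of both rows used exact permutation, and correlations used 100000 permutations within groups (Python 3.11.15, scipy 1.17.1). The limma script was tested on simulated data. Members, lists and comparisons were chosen with earlier results of these data known. Named genes were both members, ABHD6, the 4 genes most like each by Pearson r, up to 4 called genes of a list by adjusted p, and those singled out after their values were seen (HPS5, HPS6, CPHL1P). Replicate numbers are shared between groups but did not pair the libraries. Alternatives were pseudocounts of 0.1 and 1, no filter or one at 2 FPKM, 2 scalings, no variance trend, a replicate block, only the groups compared and leaving out each library. Fragment counts were not used; the depth estimate came from 4657 single-transcript genes of at least 1500 bp. Summed FPKM was lower at later times, from between 1031361 and 1213284 at 0 h to between 748252 and 949068 at 48 h.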

Additional observations from a re-analysis of the deposited data

Results flagged for a closer look

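In KO cells at 48 h, replicate 3 gave 103 FPKM of HPS3 while the other 3 libraries gave 146 to 154 FPKM, so its gap to the nearest took 0.838 of the group's range, above Dixon's 95% limit for 4 libraries. Of 18 groups of values checked this was the only one past the limit, and chance alone passes about 1 in 20. Without this library the HPS3 rise from 24 h to 48 h in KO was 1.33 ± 0.25 on the log2 scale (SE; adjusted p = 0.0183, limma), and the KO difference from WT at 48 h was -0.52 ± 0.25 (adjusted p = 0.808). The ratio of HPS3 to CP rose by 1.40 ± 0.24 from 24 h to 48 h in KO without it.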

How the results depend on the processing

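HPS3 kept its direction in every tested comparison under all alternatives: the KO difference from WT lay between -1.03 and -1.00 at 24 h and between -0.66 and -0.59 at 48 h, uncalled throughout. The HPS3 rise from 24 h to 48 h in KO was 1.20 without a variance trend (adjusted p = 0.142) and with only the groups compared (0.068), and 1.07 to 1.34 leaving out 1 library (adjusted p 0.0126 to 0.0598). The CP fall at 24 h in WT lost its call with no filter (-0.70, 0.0521), median-of-ratios (-0.59, 0.063), quantile normalization (-0.45, 0.163), no trend (-0.70, 0.153) and only the groups compared (-0.70, 0.0907), and was -0.80 to -0.60 leaving out 1 library. The fall at 48 h in WT lost it with quantile normalization (-0.45, 0.13), no trend (-0.75, 0.0836) and only the groups compared (-0.75, 0.145), and was -0.89 to -0.56 leaving out 1 library. At 48 h in KO the CP difference of -0.58 was called at a filter of 2 FPKM (0.044) and with the replicate block (-0.58, 0.0491), fell to -0.40 with median-of-ratios (0.178) and -0.20 with quantile normalization (0.553), and was -0.66 to -0.49 leaving out 1 library. CP differences near 0 turned sign with quantile normalization (48 h against 24 h 0.00 in WT and 0.02 in KO; interaction 0.02) and on leaving out 1 library (KO against WT at 24 h -0.16 to 0.02; 48 h against 24 h in WT -0.19 to 0.14; interaction -0.26 to 0.07). The causes were not tested.

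Replicate numbers did not pair the libraries: same-numbered libraries had a median r of deviations of 0.008 and others -0.009, and 7 of 24 libraries correlated best with their own number. With the replicate block the ratio differences of -0.94, 0.90 and 1.33 had an exact adjusted p of 0.125, the smallest 4 pairs allow, and apart from the CP call at 48 h in KO the block changed no limma call of HPS3 or CP. It moved the genes called between genotypes from 2 to 0 at 24 h, from 11 to 27 at 48 h, and from 21 to 36 for 48 h against 24 h in WT. Leaving out a library gave ratio differences of -1.07 to -0.80 between genotypes at 24 h, 0.79 to 1.06 in WT and 1.19 to 1.46 in KO from 24 h to 48 h, none of which such a test can call. The within-group correlation of 0.53 was 0.47 with median-of-ratios, 0.54 without the 2 libraries farthest from the median of HPS3 and, chosen after seeing the data, 0.36 without the 2 largest deviations and 0.59 with the 24 h and 48 h libraries only.

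Counts of genes called moved over 1.5 times without a variance trend (17 to 8 at 0 h and 11 to 4 at 48 h between genotypes; 701 to 334, 973 to 639 and 1171 to 750 against 0 h; 21 to 4 in WT and 89 to 10 in KO for 48 h against 24 h). With only the groups compared they were 13 and 17 between genotypes at 24 h and 48 h, 355, 617 and 591 against 0 h, and 12 for 48 h against 24 h in WT. Between genotypes, median-of-ratios gave 5 at 24 h and 21 at 48 h, quantile normalization 5 and 26 (43 for 48 h against 24 h in WT), a pseudocount of 1 gave 1 at 24 h and one of 0.1 gave 7 at 48 h and 5 for the interaction. Median-of-ratios moved the median of all genes by 0.10 in WT and 0.11 in KO at 48 h against 0 h. It also changed list calls: acute phase 1 to 0 at 24 h in WT, 0 to 1 in WT and 0 to 2 in KO at 48 h, and 0 to 1 in both from 24 h to 48 h; Hermansky-Pudlak genes 0 to 1 at 24 h in WT; copper and iron genes 1 to 2 from 24 h to 48 h in KO; neighbours 2 to 1 at 48 h in WT (HLTF).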
